A study of Mus musculus with 7 samples.

Results

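Wt1, Tcf21, Osr1, Osr2, Lhx9 and Bnc1 are 6 transcription factor genes of the proepicardium and the dorsal mesenchyme, and their open chromatin was read in sorted cells of the mouse second heart field (SHF). The genes were taken as a given list. Their regions were chosen by position, as the ATAC-seq peaks that lie from 50 kb upstream to 50 kb downstream of each gene body in GRCm38. The 6 windows held 86 of the 210347 open regions found in the whole data set, and 71 to 117 of the 187914 to 291287 peaks deposited for a library. Among them, 75 of the 86 regions were distal, that is, outside every promoter. In ATAC-seq a transposase inserts sequencing adapters where DNA is exposed, so that reads accumulate in open chromatin.

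The cells came from the dissected SHF region of E9.5 embryos of 2 mouse lines, with the embryos of each genotype pooled before sorting and 10000 sorted cells stated per sample. GFP+ cells (replicates 3 and 4) carried the reporter of the Hoxb1-GFP line and GFP- cells (replicates 1 and 2) were the unlabelled cells of those embryos. Tomato+ cells (replicates 6 and 8) came from Mef2c-Cre;Rosa tdT embryos, and Tomato- cells (replicate 7, the only library of its kind) were their unlabelled neighbours. In the Hoxb1-GFP line the reporter follows Hoxb1 activity in the posterior SHF. In the Mef2c-Cre line a regulatory element of Mef2c drives Cre, which leaves a lasting Tomato label in cells of the anterior SHF and in their descendants. The paper reports the label also in cells of the venous pole that form the dorsal mesenchymal protrusion. It describes a small overlap between Hoxb1 and Tomato, so the sorted populations are not purely posterior and anterior. The sorted population and the mouse line cannot be told apart in a comparison of GFP+ with Tomato+ cells. Nothing in the labels says that the replicates came from separate litters, so the spread between them may be technical.

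The posterior SHF lies next to the venous pole of the heart, where the proepicardium forms. The proepicardium is a cluster of mesothelial cells that spreads over the heart as epicardium and later gives rise to fibroblasts and to smooth muscle of the coronary vessels. Mesenchyme of the dorsal side forms the dorsal mesenchymal protrusion (DMP), which closes the base of the atrial septum. Wt1 encodes a zinc finger factor that marks the epicardium, the kidney and the gonad. Tcf21 encodes a bHLH factor of epicardial cells and of fibroblast precursors. Osr1 and Osr2 encode a related pair of zinc finger factors of the odd-skipped family, of which Osr1 is used in posterior SHF cells that form the atrial septum. Lhx9 encodes a LIM homeodomain factor of the gonad, the limb and the epicardium, and Bnc1 encodes basonuclin, a zinc finger factor of mesothelium and of stratified epithelia. An open promoter or enhancer does not by itself show that a gene is transcribed.

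Each value is the fold enrichment of a peak, the pileup of tags at its summit over the local background in the same library, with 1 added to both. A q value accompanies each peak, and -log10 q at or above 2 is called here a strong peak. The rank is the place of a peak in its own library's list by fold enrichment, given as percent of the list counted from the strongest. Where a group has a pair of values, they stand in the order of the replicate numbers. The libraries held 52340120 to 93074895 tags by the background of their lists and 64306 to 77746 strong peaks. The Tomato- library had the most tags and the lowest median fold enrichment over its list, 2.59, against a highest median of 2.96. As a check of the labels, the promoters of 4 genes of the posterior SHF (Hoxb1, Aldh1a2, Osr1 and Tbx5) held a strong peak at 3 genes in each GFP+ library. The number was 1 and 3 in Tomato+ cells, 2 and 4 in GFP- cells, and 2 in Tomato- cells. Promoters of 6 genes of the anterior SHF and outflow tract held a strong peak at 3 to 5 genes in every library, so neither list set the sorted populations apart at promoters. Promoters of neural genes (Sox2, Pax6 and Sox10) held strong peaks at 1 to 3 genes, those of endothelium at 1 or 2, those of endoderm at none to 2, and those of blood at none to 2. Pax6 and Sox2, which mark the neural tube, had a promoter peak in all 7 libraries. The part that other cells had in the values below was not tested.

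The windows were neither crowded nor empty. Strong peaks per 100 kb of window ran from 2.04 to 5.44 over the libraries at Wt1, from 0.972 to 5.83 at Tcf21, from 2.8 to 4.67 at Osr1, from 2.8 to 7.46 at Osr2, from 4.85 to 8.09 at Lhx9 and from 2.39 to 5.57 at Bnc1. The median over all 21000 coding genes was 3.96 to 4.88 in the same libraries. Lhx9 lay above that median in every library, with 54.6% to 79.7% of coding genes below it. Tcf21 had the widest spread between libraries, with 10.9% to 64.1% of coding genes below it.

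Some of the regions are shown here as sequence because the results return to them. Each distal sequence is 200 bases around the summit of the library with the smallest p, on the plus strand of GRCm38.p6, and each promoter is the 250 bases before the start site in the RefSeq promoter table, on the strand of the gene. Capitals mark exact matches to motifs searched on both strands: HOX-PBX TGATNNAT, MEIS TGACAG, the GATA factor motif AGATAA, TEAD GGAATG, T-box AGGTGT, forkhead TGTTTAC and WT1 GTGGGAG. The first is the distal region with the largest difference between GFP+ and Tomato+ cells, the next are the regions most widely shared around Osr1 and Osr2, and the fourth is the region with the widest range at Bnc1. The promoters of Tcf21 and Bnc1 are the least and one of the most regularly open of the 6. The table matched 3 of the 6 genes, Tcf21, Lhx9 and Bnc1.
Wt1 +48.4 kb, chr2:105174857-105175056: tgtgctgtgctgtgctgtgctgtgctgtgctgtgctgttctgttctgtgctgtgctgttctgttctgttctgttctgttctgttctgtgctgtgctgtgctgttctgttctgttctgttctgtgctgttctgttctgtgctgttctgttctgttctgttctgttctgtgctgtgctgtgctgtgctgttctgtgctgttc
Osr1 +10.5 kb, chr12:9584904-9585103: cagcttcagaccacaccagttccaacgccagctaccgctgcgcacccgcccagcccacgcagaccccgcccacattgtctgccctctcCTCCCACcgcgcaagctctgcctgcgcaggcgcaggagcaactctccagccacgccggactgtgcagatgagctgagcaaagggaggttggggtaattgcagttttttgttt
Osr2 -3.1 kb, chr15:35292948-35293147: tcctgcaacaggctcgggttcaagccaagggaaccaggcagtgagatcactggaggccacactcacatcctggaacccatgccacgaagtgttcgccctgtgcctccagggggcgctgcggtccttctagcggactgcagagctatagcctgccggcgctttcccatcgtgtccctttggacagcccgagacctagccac
Bnc1 -20.2 kb, chr7:82012557-82012756: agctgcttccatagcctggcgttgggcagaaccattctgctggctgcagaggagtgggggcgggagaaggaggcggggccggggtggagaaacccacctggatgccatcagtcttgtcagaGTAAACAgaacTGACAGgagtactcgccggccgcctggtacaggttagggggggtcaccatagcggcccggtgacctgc
Tcf21 promoter, chr10:22820144-22820393: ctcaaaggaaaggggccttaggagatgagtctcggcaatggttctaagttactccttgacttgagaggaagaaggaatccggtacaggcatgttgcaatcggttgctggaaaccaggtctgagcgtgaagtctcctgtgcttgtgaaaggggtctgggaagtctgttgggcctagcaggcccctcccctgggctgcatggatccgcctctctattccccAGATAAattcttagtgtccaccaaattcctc
Bnc1 promoter, chr7:81992300-81992549: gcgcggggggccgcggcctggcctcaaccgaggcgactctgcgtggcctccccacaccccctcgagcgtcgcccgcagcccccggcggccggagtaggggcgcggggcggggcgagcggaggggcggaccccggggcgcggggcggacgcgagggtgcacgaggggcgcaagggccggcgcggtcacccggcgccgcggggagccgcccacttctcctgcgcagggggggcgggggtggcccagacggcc

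The promoters of the 6 genes were open at a modest level, in most libraries below the median of those coding promoters that held a peak. A promoter is the stretch from 1000 bp upstream to 100 bp downstream of a curated RefSeq start site. Its value is the strongest peak touching it, whose summit may lie outside. Over all coding genes, 68.7% to 71.4% of promoters held a peak in a library. Among those with a peak the median fold enrichment was 5.22 to 5.73. Over those of the 6 genes with a peak the median was 2.50 to 4.10. A promoter peak in every library was found for 4 of the 6 genes, Wt1, Osr2, Lhx9 and Bnc1, and for 60.7% of coding genes. A strong promoter peak in every library was found for 2 of the 6, Osr2 and Bnc1, and for 53.1% of coding genes. These counts go by the promoter window. An open region reaching into it had a strong peak in all 7 libraries at Lhx9 and in 6 at Osr1. No member lacked a promoter peak altogether, as 18.2% of coding genes did.

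Osr2 (gene 107587, chr15:35296098-35303305, plus strand) had the highest median promoter value and the highest single value of the 6, though not the highest value in each library. Its fold enrichment was 4.57 and 4.32 in GFP+ cells, 5.21 and 3.50 in Tomato+ cells, 4.07 and 6.41 in GFP- cells and 4.03 in Tomato- cells. The highest library was a sort-negative one, and the GFP+ values lay between the Tomato+ values. The peak was strong in all 7 libraries, with -log10 q from 4.2 to 16.71, and ranked within the top 4.91% to 20.3% of a list. Its summit stayed within 102 bp upstream and 54 bp downstream of the start site. Even so, 26.4% to 56.3% of all coding promoters had a higher fold enrichment.

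Bnc1 (gene 12173, chr7:81966657-81992299, minus strand) varied least. Its fold enrichment was 3.68 and 3.82 in GFP+ cells, 4.26 and 3.34 in Tomato+ cells, 4.04 and 3.50 in GFP- cells and 3.38 in Tomato- cells. All 4 groups overlapped or lay within the range of another, and the group means were 3.75 ± 0.10 (SD, n = 2) in GFP+ and 3.80 ± 0.66 (SD, n = 2) in Tomato+ cells. The peak was strong in all 7 libraries. Its promoter sequence, printed above, is the most GC-rich of those shown, 83.6%, with an observed to expected CpG ratio of 0.91, against medians of 52.4% and 0.37 over the promoters of the table.

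Wt1 (gene 22431, chr2:105126529-105173614, plus strand) shares its promoter region with the antisense gene Wt1os, and the peaks carry no strand, so the openness of the pair cannot be told apart. The fold enrichment was 4.10 and 3.13 in GFP+ cells, 3.91 and 3.14 in Tomato+ cells, 3.47 and 3.82 in GFP- cells and 2.24 in Tomato- cells. GFP+ and Tomato+ cells had nearly the same pair of values, and Tomato- cells were lowest. The peak was strong in 6 of 7 libraries, all but Tomato-, where it ranked at 80.2% of the list. The background around this promoter was 1.58 to 2.12 times that of the genome, which lowers a fold enrichment for a given pileup.

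Osr1 (gene 23967, chr12:9574442-9581500, plus strand) had a promoter peak of 3.84 and 3.06 in GFP+ cells, 2.73 and 3.79 in Tomato+ cells, 4.56 in GFP- replicate 2 and 2.50 in Tomato- cells. GFP- replicate 1 had no peak in the promoter window, but a peak of 4.03 in the same open region, beyond the edge of the window. Tomato+ replicate 6 likewise had a peak of 3.37 in that region, while its 2.73 was a separate peak further upstream. The group means were 3.45 ± 0.55 (SD, n = 2) in GFP+ and 3.26 ± 0.75 (SD, n = 2) in Tomato+ cells. Within the promoter window the peak was strong in 4 libraries. Both displaced peaks were strong too, with -log10 q of 5.28 in GFP- replicate 1 and 2.67 in Tomato+ replicate 6. Over the open region the peak was strong in 6 libraries, all but Tomato-.

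Lhx9 (gene 16876, chr1:138825186-138848839, minus strand) has a pair of curated start sites, and its strongest promoter peak lay before the upstream one in most libraries. The fold enrichment was 5.91 and 3.27 in GFP+ cells, 3.79 and 4.12 in Tomato+ cells, 2.82 and 3.17 in GFP- cells and 2.38 in Tomato- cells. The 4 sort-positive libraries were all above the 3 sort-negative libraries, by a narrow margin of 3.27 against 3.17, and GFP+ replicate 3 stood apart from replicate 4. The group means were 4.59 ± 1.86 (SD, n = 2) in GFP+, 3.96 ± 0.23 (SD, n = 2) in Tomato+ and 3.0 ± 0.25 (SD, n = 2) in GFP- cells. These values do not come from a single element. The sort-positive peaks all lay in the open region at -1.1 kb (chr1:138848293-138849025). The GFP- peaks lay nearer the upstream start site, outside that region, and the Tomato- peak lay before the other start site. Within the region the values were 5.91 and 4.26 in GFP+, 3.79 and 4.12 in Tomato+, 2.99 and 4.33 in GFP- and 3.09 in Tomato- cells. There the order did not hold, since GFP- replicate 2 was above GFP+ replicate 4.

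Tcf21 (gene 21412, chr10:22817263-22820143, minus strand) was the least regularly open of the 6. A promoter peak was present in 3 libraries, at 2.75 in GFP+ replicate 4, 4.52 in Tomato+ replicate 6 and 3.52 in GFP- replicate 1. In each of these groups the other replicate had none, so replicates did not repeat each other. The peak was strong in 2 of the 3 libraries. Its promoter, printed above, has 52.4% GC and a CpG ratio of 0.29.

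**Figure D1:**
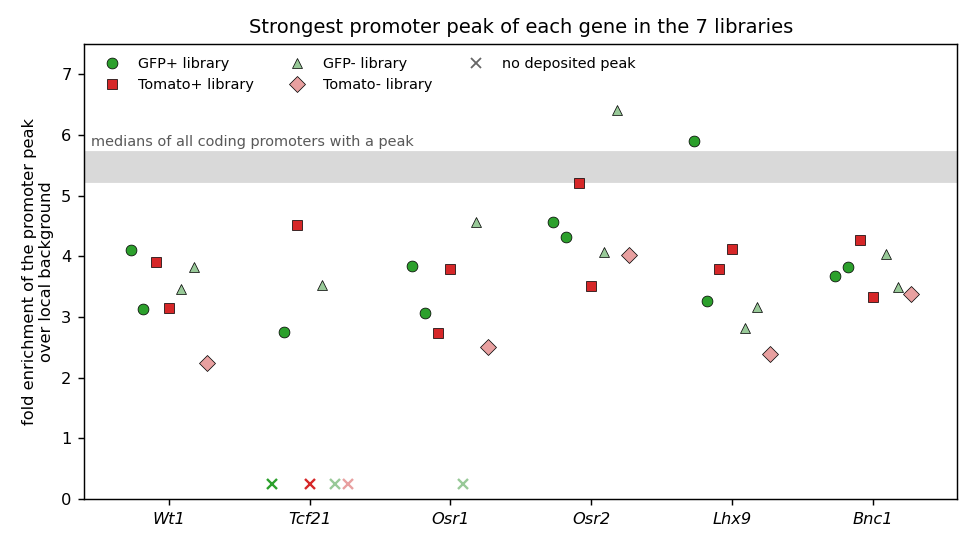
Fold enrichment over local background of the strongest promoter peak (vertical axis, linear, from 0) for each of the 6 genes, 1 symbol per library, with crosses near 0 for libraries without a peak. The grey band spans the library medians of all coding promoters with a peak, 5.22 to 5.73, and only GFP- replicate 2 at Osr2 and GFP+ replicate 3 at Lhx9 lie above it.

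Ordered by the median over libraries, Osr2 came first and the other genes followed with ranges that overlapped each other and that of Osr2. The pileups behind these values were small, 10 to 36 tags at the summit. For the highest value, Osr2 in GFP- replicate 2, the exact 95% Poisson interval of the pileup gave a fold enrichment of 4.54 to 8.80, and for the lowest, Wt1 in Tomato- cells, 1.32 to 3.61. These intervals cover counting error only. For neighbouring values within a gene they overlapped widely, so differences of this size were not detectable at this depth in a single library. A test of 2 GFP+ against 2 Tomato+ libraries by exact permutation cannot give a two-sided p below 0.333, so the promoter levels are given without one. The ranks of promoter peaks are set against lists of 207357 to 291287 peaks in the GFP+ and Tomato+ libraries, so a longer list moves every peak nearer its top, and a difference in rank is not a change in level. GFP+ less Tomato+, in points of percent of the list and with a minus sign for GFP+ nearer the top, it was -1.22 for Lhx9, -2.50 for Wt1, -4.34 for Osr2, -5.08 for Bnc1 and -16.3 for Osr1. Each of the 5 turned sign when some library was left out. Without GFP+ replicate 3, Wt1 was at 7.15 and Lhx9 at 7.97. Without Tomato+ replicate 6, Osr1 was at 4.80 and Lhx9 at 0.28. Without Tomato+ replicate 8, Wt1 was at 3.74, Osr2 at 2.19 and Bnc1 at 1.57, while Osr1 was at -37.4. With promoters of 500 bp on either side of the start site, Osr1 was at 0.78. The Osr1 difference of -16.3 used the separate upstream peak of Tomato+ replicate 6, at 2.73. The ranks therefore gave no stable order between the sorted populations. The median over the 5 genes, -4.34, was 1.57 without Tomato+ replicate 8, -10.4 without GFP+ replicate 4, -8.74 without Tomato+ replicate 6 and -2.44 without GFP+ replicate 3.

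Away from the promoters, the widely shared distal regions reached levels like those of the promoters. A region is a merged stretch of overlapping peaks of which at least 1 was strong, and its value in a library is the strongest peak that touches it. Distances run from the middle of a region to the nearest curated start site of the gene, with plus for downstream. A peak in all 7 libraries was found in 15 of the 86 regions, or 17.4%, against 16.2% of all regions. Of the 75 distal regions 8 had one, or 10.7%, against 10.9% of all distal regions. Osr1 and Osr2 had 2 each, Lhx9 had 2, Wt1 and Bnc1 had 1 each, and Tcf21 had none. Regions seen in 1 library only made up 20.9% of the 86 and 35.4% of all regions.

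**Figure D2:**
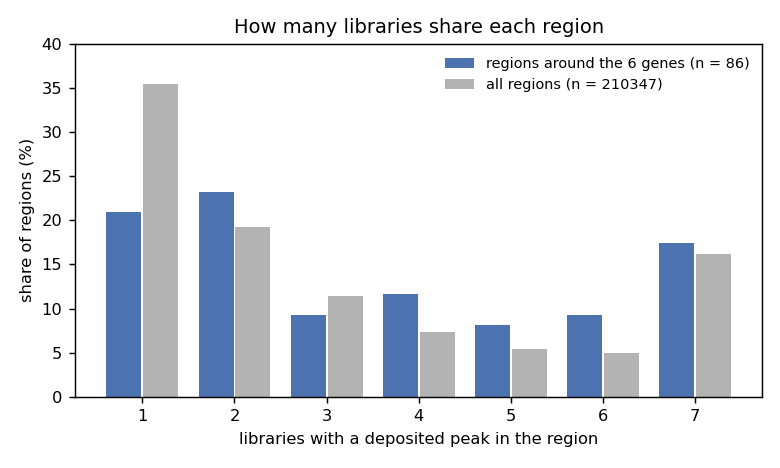
Share of regions (percent, vertical axis from 0) by the number of libraries with a peak in them (1 to 7), for the 86 regions around the 6 genes and for all 210347 regions. Regions with a peak in 1 library are 20.9% of the former and 35.4% of the latter, and regions with a peak in all 7 are 17.4% and 16.2%.

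Both widely shared distal regions of Osr1 had a strong peak in every library. The region at +10.5 kb (chr12:9584677-9585231), inside the predicted gene Gm40268, had a fold enrichment of 4.33 and 5.95 in GFP+, 4.16 and 3.97 in Tomato+, 4.33 and 4.63 in GFP- and 4.0 in Tomato- cells. GFP+ replicate 4 was highest, and no group stood apart. Its printed sequence holds a reverse match to the WT1 motif, at position 89 counted from its first base. The intergenic region at -40.2 kb (chr12:9534022-9534441) gave 4.22 and 5.0 in GFP+, 3.94 and 4.81 in Tomato+, 3.52 and 3.80 in GFP- and 3.45 in Tomato- cells. Here all 4 sort-positive libraries were above the 3 sort-negative ones, with 3.94 against 3.80 as the nearest pair.

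Osr2 had a shared distal region on either side. At -3.1 kb (chr15:35292672-35293289), in the predicted gene Gm52178, the values were 2.91 and 4.91 in GFP+, 4.74 and 3.82 in Tomato+, 3.76 and 3.75 in GFP- and 3.31 in Tomato- cells. The GFP+ replicates were the lowest and the highest of all libraries, so the group had no common level. At +30.5 kb (chr15:35326258-35326948), in intron 1 of the noncoding gene BC048602, the values were 4.22 and 3.25 in GFP+, 4.27 and 5.10 in Tomato+, 3.02 and 6.24 in GFP- and 5.61 in Tomato- cells. The GFP- replicates spanned the whole range there.

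At Bnc1, the region at -20.2 kb (chr7:82012153-82012873), in the predicted gene Gm46013, ranged most widely. Its values were 4.66 and 6.46 in GFP+, 6.47 and 3.11 in Tomato+, 3.52 and 2.71 in GFP- and 2.59 in Tomato- cells. Both GFP+ libraries and Tomato+ replicate 6 were above every sort-negative library, and Tomato+ replicate 8 lay among the sort-negative ones. Peaks were strong in GFP+ replicates 3 and 4, Tomato+ replicate 6 and GFP- replicate 1. Its sequence holds a reverse forkhead match at position 122 and a MEIS match at position 133. The region at +0.7 kb in intron 1 of Bnc1 had a peak of 2.95 and 2.92 in GFP+ cells, 3.01 in GFP- replicate 2 and 3.21 in Tomato- cells, and none in the others.

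The widely shared distal regions of Wt1 and Lhx9 stayed below 5 in every library. At Wt1 +48.4 kb (chr2:105174705-105175201), between genes and just beyond the end of Wt1, the values were 3.74 and 4.09 in GFP+, 2.63 and 3.0 in Tomato+, 3.27 and 4.07 in GFP- and 4.55 in Tomato- cells. The Tomato+ libraries were the lowest and the Tomato- library was the highest. The printed sequence there is a simple repeat, with 16 different words of 8 bases of 193 possible, and 0.0998% of all regions had fewer. The part that this repeat had in the values was not tested. At Wt1 -3.4 kb, in intron 1 of Wt1os, the values lay between 2.65 and 3.22 in 6 libraries, with no peak in Tomato+ replicate 6. At Lhx9, the intronic region at +0.7 kb ran from 2.51 to 3.35 over all 7 libraries, and the region at +4.0 kb, in the coding part of exon 3, ran from 2.47 to 4.34, with both ends of the range in the GFP+ replicates.

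Tcf21 had no region with a peak in all libraries. The nearest to one was at -23.1 kb, in the predicted gene Gm51761, with a fold enrichment of 2.25 to 3.26 in 6 libraries, none in GFP- replicate 1, and a strong peak in only 1. At +6.5 kb, in the predicted gene Gm10824, the values were 3.52 and 3.47 in GFP+, 3.81 and 2.83 in Tomato+ and 2.71 in GFP- replicate 2. All 4 sort-positive libraries had a peak at this place, and 1 of 3 sort-negative libraries did.

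**Figure D3:**
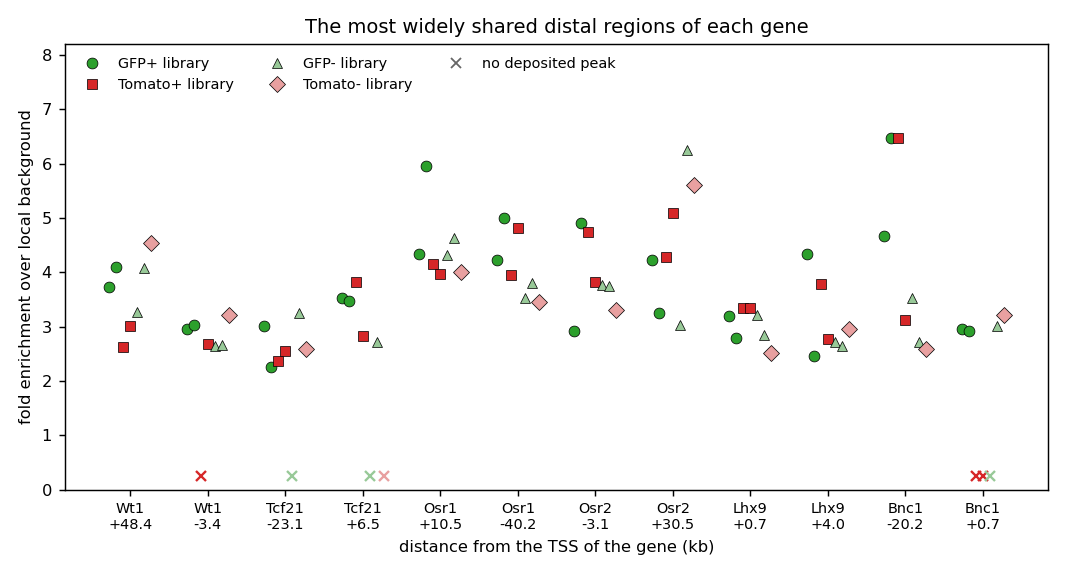
Fold enrichment over local background (vertical axis, linear, from 0) of the distal regions found in most libraries, 2 per gene, named by gene and distance from its start site in kb, 1 symbol per library, with crosses for libraries without a peak. Bnc1 -20.2 kb has the widest range, 2.59 to 6.47, and Osr1 +10.5 kb has a peak between 3.97 and 5.95 in every library.

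The strongest region of the windows belonged to a neighbour. The promoter of 2310009B15Rik, a gene 9.1 kb upstream of Lhx9, reached 6.86 to 15.4. Of lower level was the promoter of Hdgfl3, in the window of Bnc1, at 3.84 to 5.89. A window by distance therefore holds elements that need not belong to the gene it was drawn around.

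**Figure D4:**
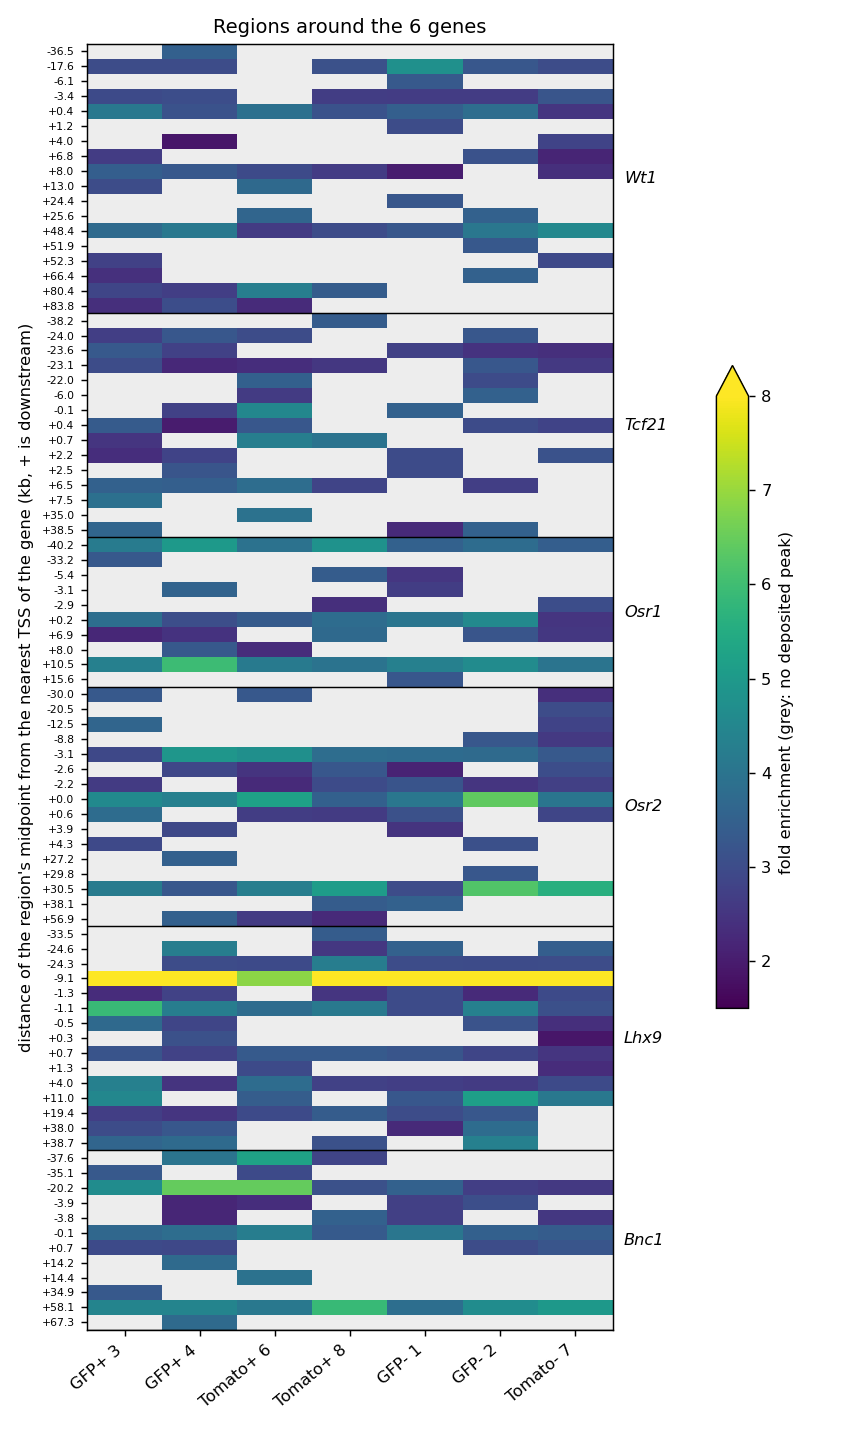
The 86 regions around the 6 genes (rows, named by distance in kb from the nearest start site of the gene) in the 7 libraries (columns), coloured by fold enrichment from 1.5 to 8 on a linear scale, with grey for no deposited peak. Rows filled across all 7 columns are 15, of which the row at Lhx9 -9.1 kb, the promoter of a neighbour, is the strongest.

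Few regions around the 6 genes had a peak in one sorted population and not in the other. Both GFP+ libraries and neither Tomato+ library had a peak in 5 of the 86 regions, or 5.81%, against 3.28% of all regions. The reverse pattern was met by 0 of the 86, against 2.69% of all regions. The 5 regions were spread over Tcf21 (2), Lhx9 (2) and Bnc1 (1). With 86 regions these shares rest on few regions. The peaks in GFP+ cells were modest in fold enrichment, between 2.34 and 3.71. Some of them were strong by q, among them both at Lhx9 -0.5 kb, with -log10 q of 3.91 and 2.17.

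At Tcf21, the region at +2.2 kb in intron 1 (chr10:22817813-22818025) had 2.34 and 2.81 in GFP+ cells, but also 2.99 in GFP- replicate 1 and 3.13 in Tomato- cells. The region at -23.6 kb had 3.31 and 2.75 in GFP+ cells, and between 2.37 and 2.77 in all 3 sort-negative libraries. At Lhx9, the intergenic region at +38.0 kb had 3.01 and 3.25 in GFP+ cells, with 2.27 and 3.80 in GFP- cells. The region at -0.5 kb, within the promoter (chr1:138847863-138848272), had 3.71 and 2.86 in GFP+ cells, 3.17 in GFP- replicate 2 and 2.36 in Tomato- cells. It almost touches the region at -1.1 kb (chr1:138848293-138849025), which had strong peaks of 3.79 and 4.12 in Tomato+ cells. At such places the pattern depends on where neighbouring regions were divided. The fifth region was Bnc1 +0.7 kb, with the values given above. All 5 had a peak in at least 1 sort-negative library, so none was found in GFP+ cells only. Both GFP+ and neither GFP- library had a peak in 2 of the 86 regions, or 2.33%, against 3.58% of all regions, and the reverse was met by 0, against 2.63%.

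The count depended on single libraries, since with 1 library fewer the pattern is easier to meet. With GFP+ replicate 3 or GFP+ replicate 4 left out it was 14, without Tomato+ replicate 6 it was 8 and without Tomato+ replicate 8 it was 9. The share among all regions rose likewise, to 6.18% to 14.5%, against 9.88% to 18.4% around the 6 genes. The reverse count was 3 without either GFP+ library, 5 without Tomato+ replicate 6 and 6 without Tomato+ replicate 8, or 3.75% to 7.32% of the regions, against 5.09% to 12.4% of all regions. If a peak had to be strong to count, 5 regions, or 5.81%, again had the GFP+ pattern, against 1.5% of all regions, and of these 1, Lhx9 -0.5 kb, was among the 5 above. The others by that definition were Wt1 -3.4 kb, Wt1 +8.0 kb, Wt1 +48.4 kb and Lhx9 +38.7 kb. The reverse pattern was then met by 2 regions, or 2.33%, against 1.23% of all regions, named here after their values were seen. Wt1 +80.4 kb had 4.27 and 3.40 in Tomato+ and 2.86 and 2.7 in GFP+ cells, and Tcf21 +0.7 kb, in intron 1, had 4.28 and 3.96 in Tomato+ cells and 2.51 in GFP+ replicate 3. Neither had a peak in a sort-negative library.

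The comparison of levels asked whether openness differed between the posterior SHF cells marked by Hoxb1-GFP and the cells marked by Mef2c-Cre, and between labelled and unlabelled cells of each line. It was fitted with limma on the log2 fold enrichment of the 34032 regions with a peak in all 7 libraries, each library centred on its median. Of the 15 such regions around the 6 genes, 0 passed an adjusted p of 0.05 in any of the 3 comparisons. Over all fitted regions 1 passed for GFP+ against Tomato+, or 0.00294%, and 0 passed for the other comparisons, or 0% each, so the count of members does not stand apart from the rest. Without adjustment, limma p was below 0.05 at 3009, 2171 and 1359 of all fitted regions for GFP+ against Tomato+, GFP+ against GFP- and Tomato+ against Tomato-. At the 15 regions it was so at 0, 1 and 1.

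Between GFP+ and Tomato+ cells the differences at the 15 regions ran from -0.33 to 0.48 on the log2 scale, with a median of 0.03 against -0.01 over all fitted regions. Their 95% intervals reached from -0.99 to 1.0, so changes of nearly 2-fold at single regions were not excluded by these data. Wt1 +48.4 kb, the repeat, had the largest difference, 0.48 (SE 0.25, interval -0.05 to 1.0, limma adjusted p = 0.611). The promoters differed by 0.03 (SE 0.26) at Wt1, -0.06 (SE 0.25) at Osr1, 0.06 (SE 0.29) at Osr2, 0.34 (SE 0.27) at Lhx9 and -0.01 (SE 0.26) at Bnc1. For Lhx9 that is a higher level in GFP+ cells with a limma adjusted p of 0.766. Single libraries moved these values. The range over the regions fitted widened to -0.54 at its lowest, without GFP+ replicate 4, and the median was 0.15 without Tomato+ replicate 6 and -0.13 without Tomato+ replicate 8. The largest difference was then 0.87 at Bnc1 -20.2 kb without Tomato+ replicate 6, 0.97 at the 2310009B15Rik promoter without Tomato+ replicate 8, 0.57 at Osr1 +10.5 kb without GFP+ replicate 3 and 0.59 at the Lhx9 promoter without GFP+ replicate 4. None of these passed adjustment.

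Between GFP+ and GFP- cells of the same line the differences ran from -0.39 at the Osr1 promoter to 0.76 at Bnc1 -20.2 kb, with a median of 0.00 against -0.03 over all fitted regions. Bnc1 -20.2 kb was higher in both GFP+ libraries than in both GFP- libraries by 0.76 (SE 0.33, interval 0.06 to 1.47), which did not pass after adjustment (limma adjusted p = 0.741). In Tomato+ against Tomato- cells the same region differed by 0.81 (SE 0.41, interval -0.06 to 1.67), and in GFP+ against Tomato+ cells by 0.29 (interval -0.42 to 1.0). These comparisons draw on a single fit and share its estimate of the spread.

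Between Tomato+ and Tomato- cells the differences ran from -0.68 at Wt1 +48.4 kb (SE 0.31, limma adjusted p = 0.999) to 0.81 at Bnc1 -20.2 kb, with a median of 0.17 against 0.00 over all fitted regions. The promoters of Wt1, Osr1 and Lhx9 were lowest in Tomato- cells. That library had the lowest median fold enrichment over its list, 2.59, and a median of 5.72 over all coding promoters with a peak. The part of the library itself in these values was not tested. With 1 Tomato- library the fit assumed that it varies like the other groups. The difference between the 2 sort comparisons, GFP+ over GFP- less Tomato+ over Tomato-, was also fitted, and 0 of 34032 regions passed, with 1532 at an unadjusted limma p below 0.05. The Osr1 promoter was the member with that, at -0.92 (SE 0.39, limma adjusted p = 0.999).

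**Figure D5:**
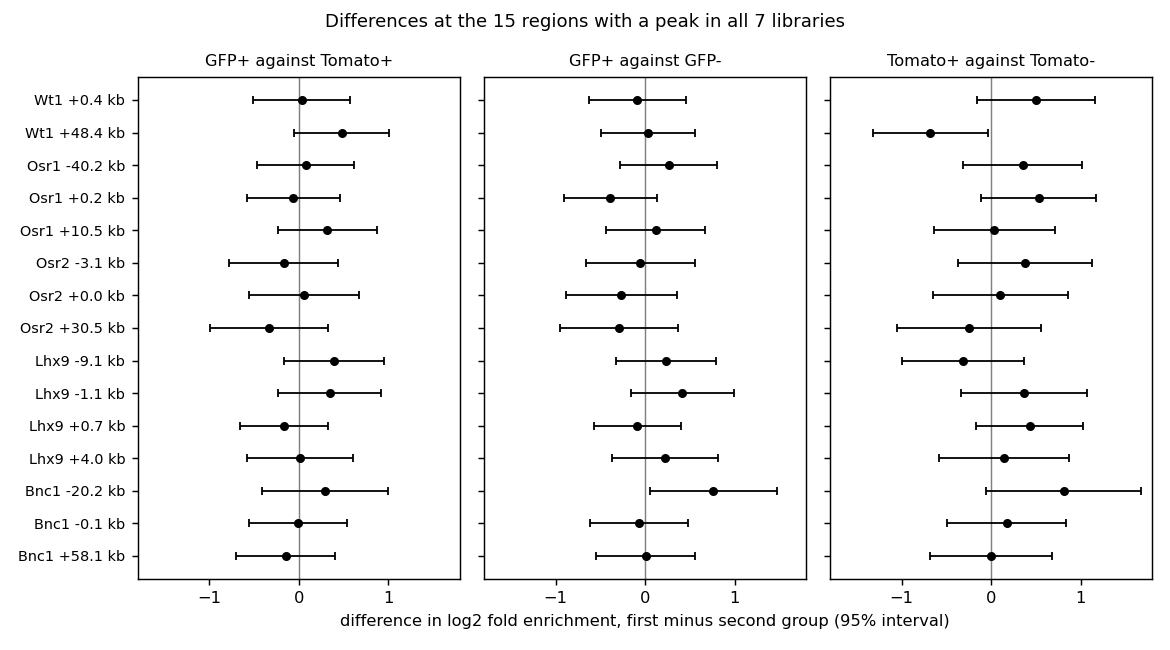
Difference in log2 fold enrichment (horizontal axis, first group minus second, log2 scale) at the 15 regions around the 6 genes with a peak in all 7 libraries, with points for the limma estimate and bars for its 95% interval. Most intervals span 0, the exceptions being Bnc1 -20.2 kb in GFP+ against GFP- (0.06 to 1.47) and Wt1 +48.4 kb in Tomato+ against Tomato-, and neither passed adjustment.

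In sequence, the distal regions of the 6 genes were somewhat longer and richer in CpG than distal regions at large. Their median length was 185 bp against 148 bp, their median GC content 55.0% against 52.5%, and their median CpG ratio 0.31 against 0.19. Promoter regions of the 6 genes had 66% GC against 64.5%, and a CpG ratio of 0.65 against 0.72. In the 200 bases at the summit a MEIS match was found in 22.7% of the 75 distal regions and in 15.9% of all distal regions. For HOX-PBX the shares were 8.0% and 6.77%, for GATA 5.33% and 6.95%, for TEAD 14.7% and 11.5%, for T-box 10.7% and 12.3%, for forkhead 1.33% and 1.96% and for WT1 10.7% and 7.22%. Of the 250-base promoters of the table, 9.99% hold the GATA match that the Tcf21 promoter has at position 220. The printed regions of Wt1 and Osr2 and the printed Bnc1 promoter hold none of the 7 motifs. These are shares of short exact matches, from small numbers for the 6 genes.

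Other genes of the proepicardium and of the mesothelium were also open at a modest level at their promoters. A list of 16 such genes held strong peaks at 8 to 12 genes in a library. Over all coding genes, 60.8% to 63.7% of promoters held one. The list includes Wt1os, whose promoter is shared with Wt1. Against 62.1% of coding genes, 8 of the 16, or 50%, had a promoter region with a peak in all 7 libraries. Of these 0 passed the limma test in any comparison, as 0 of 13039 coding promoter regions did, and their median difference was 0.05 for GFP+ against Tomato+, against 0.07 over all coding promoters. For GFP+ against GFP- it was 0.11 against 0.03, and for Tomato+ against Tomato-, which has a single Tomato- library, 0.38 against -0.06. For GFP+ against Tomato+, unadjusted limma p was below 0.05 at 1 of the 8 regions, against 616 of the 13039 coding promoter regions. For GFP+ against GFP- it was so at 1 of the 8, against 388 of the 13039. Counts over 8 regions are too small to set the list apart. The median promoter fold enrichment of the list was 2.91 in Tomato- cells and 3.62 to 4.01 in the others. Sema3d, a secreted guidance factor of the proepicardium, had the most open promoter, with 12.4 and 9.02 in GFP+, 6.39 and 6.99 in Tomato+, 9.31 and 8.81 in GFP- and 6.91 in Tomato- cells. Tbx18, a T-box factor of the proepicardium and sinus venosus, had 5.0 and 4.09 in GFP+ and 3.67 and 5.29 in Tomato+ cells, so the groups overlapped. Gpm6a, a membrane protein found in mesothelium, had 6.32 and 6.0 in GFP+ cells and 3.02 to 4.93 in all others. Against GFP- cells, genes of the list lay either way. Podxl had 5.02 and 4.59 in GFP+ and 5.58 and 5.43 in GFP- cells. Both GFP+ values of Itga4 were also below both of its GFP- values. Between GFP+ and Tomato+ cells the values of Podxl and of Itga4 overlapped. Upk3b, a uroplakin of mesothelium, had a peak in GFP+ replicate 3 (3.91) and in both Tomato+ libraries (3.0 and 2.59) only, and Msln, which encodes mesothelin, had one in 3 libraries, at 1.98 to 2.7.

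For comparison, 60.8% to 63.7% of coding genes held a strong promoter peak in a library. A promoter region with a peak in all 7 libraries was found for 62.1% of them. A list of 10 genes of the DMP and the posterior heart field held strong peaks at 5 to 8 genes in a library. It had 7 promoter regions with a peak in all 7 libraries, 0 of which passed the limma test in any comparison. Their median difference was -0.03 for GFP+ against Tomato+ and 0.14 for GFP+ against GFP-, against 0.07 and 0.03 over all coding promoters. For Tomato+ against Tomato- it was 0.05 against -0.06. Single genes lay either way. Hoxb1, whose activity drives the GFP reporter, had 3.73 and 2.88 in GFP+ and 2.44 and 3.54 in Tomato+ cells, which overlapped. Wnt2, a ligand made in cells near the venous pole, had 4.25 and 5.44 in GFP+ and 4.21 and 3.40 in Tomato+ cells. Tbx5, a T-box factor of the atria and the DMP, had a promoter peak in GFP+ replicate 3 and both GFP- libraries, at 2.78 to 3.36, and in no library of the Mef2c-Cre line. Foxf1, a forkhead factor of the splanchnic mesoderm, had 3.04 and 2.68 in GFP+ and 4.37 and 3.69 in Tomato+ cells. Ptch1, the receptor of Hedgehog ligands, had 2.82 and 2.73 in GFP+ and 4.21 and 3.41 in Tomato+ cells. Bmp4, a ligand of the TGF-beta family, had no promoter peak in GFP+ cells, 3.58 and 2.58 in Tomato+ cells and 2.53 in GFP- replicate 2. In these 3 genes the Tomato+ values were the higher, and neither Foxf1 nor Ptch1 passed the test.

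The genes whose promoter regions moved most like those of the members over the 7 libraries are given as a description. Pearson's r of centred log2 fold enrichment was 0.98 for Wt1 with Mapk8ip1 and 0.96 with Slco4c1, 0.98 for Osr1 with Itga4 and 0.96 with Irx3, 0.99 for Osr2 with Nptxr and 0.98 with Mcu, 0.99 for Lhx9 with Nuak2 and 0.98 with Gpx3, and 0.96 for Bnc1 with Cd276 and with Slc12a4. These are the 2 highest of 13039 promoter regions for each gene, all points come from the same 7 libraries, and 18 to 35 genes passed 0.9 for each. Among the members, r ran from -0.13 for Lhx9 with Bnc1 to 0.79 for Wt1 with Osr1, so the 5 promoters did not move as 1 group.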

How the data were processed

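ATAC-seq of 7 libraries was analysed from 7 peak lists, 1 per library, with groups from the sample labels. Reads were aligned by the authors to GRCm38 with SNAP, filtered with SAMtools and an ENCODE blacklist, and used to call peaks per library with MACS2 (2.1.1 per the labels). The header kept with Tomato+ replicate 6 names MACS 2.1.0.20150731, no control, peaks kept to p of 0.01, tags of 49 bp and a shift of 37 bp before extension to 73 bp, which can displace summits. It also names a run with YFP, and the labels give Tomato. The pileup signal that the authors deposited is raw, and the deposited fold enrichment is its ratio to local background within a library. Deposited significance, as -log10 of the p-value and of the q-value, grows with depth. Read counts were not used here, so the DiffBind test of the study was not repeated and limma on fold enrichment took its place.

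Peaks with q at most 0.01 in at least 1 library were merged to regions, which took the strongest peak touching by 1 bp. The fit used 4 group means, a trend on the mean level and Benjamini-Hochberg adjustment at 0.05. Tags were computed from the smallest background with a genome size of 1870000000 bp. Start sites, gene bodies, sequence and promoters were from RefSeq for GRCm38.p6. All 6 genes are described with their promoters, the 2 distal regions per gene found in most libraries and then with the highest median -log10 q, up to 2 regions per gene that separate GFP+ from Tomato+ libraries, and the 2 genes of most like pattern. The members and all lists were chosen with earlier results of these data known. An item of the lists is not reported here and was left out of their counts. Scripts were tested on simulated data. Alternatives were quantile normalization, pileup scaled to tags, q limits of 0.0001 or none, an overlap of a share of 0.5 of the shorter interval, peaks in the compared groups only, windows of 20 kb or 100 kb, 500 bp promoters and leaving out each library. Python 3.11.15, pandas 2.3.3, numpy 2.4.6, R 4.3.3 and limma 3.58.1 were used.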

Additional observations from a re-analysis of the deposited data

How the results depend on the processing

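Among the regions around the 6 genes 0 were called in any of the 3 comparisons under each alternative run, and the lowest limma adjusted p reached at one of them was 0.106, at the promoter of 2310009B15Rik without Tomato+ replicate 8. Over all regions, GFP+ against Tomato+ gave 1 call, which became 2 with a peak needed in the compared groups only, 4 with quantile normalization (3 higher in GFP+) and 81 with pileup scaled to tags (62 higher in GFP+). Leaving out 1 library gave 0 to 22 calls, with 0 without either GFP+ library, 2 without either GFP- library, 19 without Tomato+ replicate 6 and 22 without Tomato+ replicate 8. Tomato+ against Tomato- gave 0 calls and 0 to 4 with 1 library left out, and it could not be fitted without Tomato- replicate 7. GFP+ against GFP- gave 0 throughout.

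The count of 5 regions with a peak in both GFP+ and neither Tomato+ library became 3 of 59 with windows of 20 kb, 5.08% against 3.28% of all regions, and 0 of 24 with regions of q at most 0.0001, against 2.69% of all. With 1 library left out it was 8 to 14, against 6.18% to 14.5% of all regions. The reverse count of 0 became 2 with presence by q at most 0.01, against 1.23% of all regions, and 1 of 143 with windows of 100 kb, against 2.69%. With 1 library left out it was 3 to 6, against 5.09% to 12.4% of all regions. The median rank difference of -4.34 ran from -10.4 to 1.57 with 1 library left out, and was -11.9 as percent of the strong peaks. For single genes the rank difference moved beyond the replicate spread in 3 of 34 alternatives: -13.5 for Osr2 and -15.0 for Bnc1 as percent of the strong peaks, and -22.1 for Lhx9 with promoters of 500 bp on either side. At Lhx9 the 500 bp window leaves out the region at -1.1 kb, which held the promoter peaks of all 4 sort-positive libraries. Beyond that, and the fewer libraries or regions that some settings use, the cause of these moves was not tested. The labels do not say which labelled and unlabelled libraries came from the same pool of embryos, so no paired analysis was run. Single promoters of the 6 genes had pileups of only 10 to 36 tags.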
